A study of Mus musculus with 2 samples.

Results

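The messenger RNAs of 57 receptors and receptor subunits for peptides and hormones were followed in sorted cells of mouse intestinal organoids. The 57 symbols form a list made for this work by function and were looked up by gene symbol in both deposited tables, each of which holds 23793 gene rows. A row of its own was found for 55 of the 57. *Galr3* and *Cckar* occur only in rows joined with a neighbouring gene and were kept apart.

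The organoids are epithelial cultures grown in Matrigel from small-intestinal crypts of ChgA-GFP reporter mice, in a medium that held noggin, murine epidermal growth factor and, at 10%, conditioned medium with R-spondin. GFP in these mice reports chromogranin A, a granule protein that is abundant in enterochromaffin cells, the serotonin-producing endocrine cells of the gut. Dissociated cells were sorted by fluorescence into a GFP+ fraction, about 1% of the cells, and a GFP- fraction, the rest. There was 1 library of each fraction, so the differences are given with no p-value and no check against replicates. Both fractions carry the same strain label and culture protocol. The sources used here do not give age, sex or the number of mice or cultures behind each library, nor its total number of fragments. The GFP- fraction is a mixture of all remaining epithelial cells, endocrine cells of other kinds included.

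Peptide hormone receptors sit in the cell membrane and turn the arrival of a peptide into a signal inside the cell. Most belong to the G protein-coupled receptors: those coupled to Gi proteins lower cyclic AMP and damp secretion, those coupled to Gs raise cyclic AMP, and those coupled to Gq release calcium from stores. A few, such as the growth hormone and prolactin receptors, are single-pass proteins that signal through Janus kinases. In the gut epithelium, endocrine cells both release peptides and carry receptors for them, somatostatin being the classical inhibitor of its neighbours.

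Levels are given in FPKM (fragments per kilobase, corrected for library size), which are scaled by length and can be set side by side between genes. Differences are log2((FPKM + 1) in GFP+ / (FPKM + 1) in GFP-), a scale that understates the change of low genes. A gene was compared when its higher value was at least 1 FPKM, and a difference of at least 2 (4-fold) in either direction was taken as a rule of size. Where a pair of values carries no fraction name, GFP- comes first. With a bulk sort, a larger share of expressing cells and more RNA per cell cannot be told apart.

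The sort could be checked on 6 enterochromaffin genes, all of which were at least 4-fold higher in GFP+, with a summed 175 FPKM in GFP- and 5350 FPKM in GFP+. *Chga*, *Chgb* and *Reg4* had no estimate in GFP+ because their loci held too many fragments. Epithelial genes were high in both fractions, with 8 of 8 above 1 FPKM. Of 7 hormone genes of other endocrine cells 4 passed the size rule as lower in GFP+, and so did all 7 Paneth cell genes. The other 3 hormone genes did not: *Gip* was at 275 and 141 FPKM, *Cck* at 109 and 37.2 FPKM and *Pyy* at 1.93 and 1.06 FPKM. The 4 hormone genes passed the filter on their GFP- value alone, so their difference had to be below 0. Most compared genes of the other epithelial cell types did not pass the rule. Lower by it were 2 of 8 enterocyte, 2 of 6 goblet, 1 of 5 tuft and 2 of 6 stem and transit amplifying genes, and none was higher. Among the non-epithelial markers 1 of 5 endothelial genes (*Pecam1*, 0.187 and 10.4 FPKM), 2 of 5 estimated fibroblast and muscle genes (*Col1a1* at 1.56 and *Col3a1* at 1.61 FPKM in GFP+) and 1 of 7 neuronal and glial genes (*Ret*, 0.268 and 6.75 FPKM) reached 1 FPKM in GFP+. Of 5 immune genes *Itgam* alone reached 1 FPKM, at 1.03 in GFP- and 0.27 in GFP+. The summed level of the endothelial list was 10.5 FPKM in GFP+ and 0.278 FPKM in GFP-, with *Cdh5* at 0.00845 and *Kdr* at 0 FPKM in GFP+. The part of these markers in the receptor values was not tested.

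Most of the receptors were scarce. Of the 55 with a row of their own, 14 reached 1 FPKM in either library (25.5%), against 50.4% of the 23532 symbols in the tables. A further 28 lay under 1 FPKM in both libraries but above 0 in 1 or both, and 13 were listed at 0 in both (23.6%, against 23.8% of all symbols). All 14 reached 1 FPKM in GFP+, and 6 of them also did in GFP-. The other 8 passed on their GFP+ value alone, so their difference had to be above 0.

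At least 4-fold higher in GFP+ were 6 receptors: *Sstr5*, *Sstr1*, *Sstr2*, *Galr1*, *Npy1r* and *Ramp3*. None of the 14 was 4-fold lower. Over all compared genes 7.09% were higher and 4.59% lower by this rule. Over every symbol with no filter on level, 6 of 55 receptors (10.9%) and 3.57% of all symbols were higher. The median difference of the 14 receptors was 1.45, beside -0.12 over the 11868 compared genes. Because of the filter on level neither the count nor the median of the 14 stands as support for a difference of the group.

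**Figure D1:**
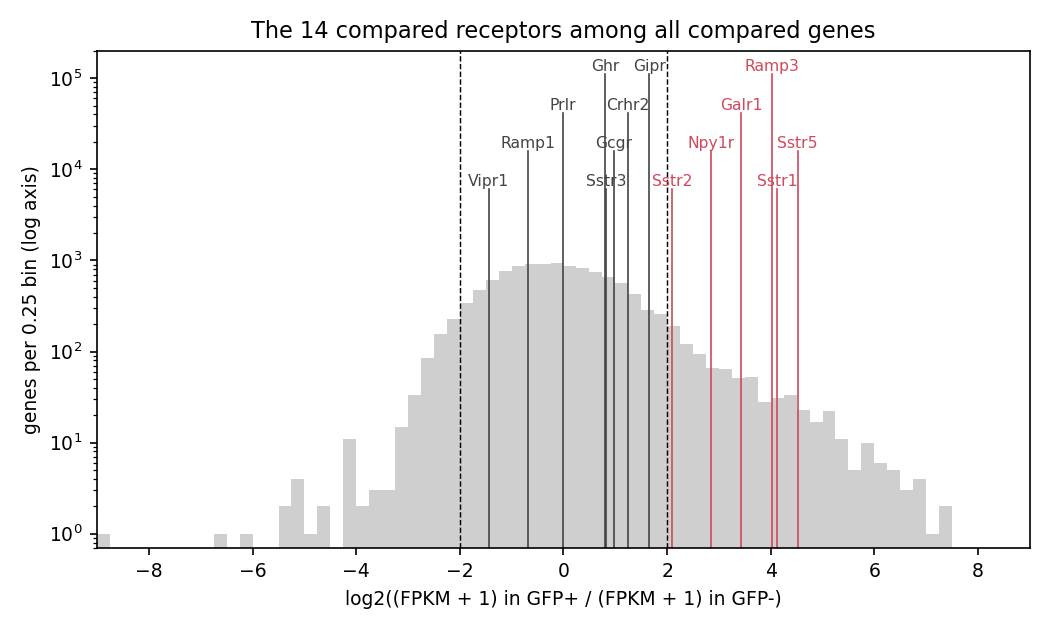
Grey bars count all 11868 compared genes by their log2 difference between GFP+ and GFP- (x axis, bins of 0.25; y axis, number of genes on a log scale), dashed lines mark the size rule at -2 and 2, and vertical lines mark the 14 compared receptors. The 6 receptors in red lie between 2.10 and 4.52, and the receptors in dark grey lie between -1.44 and 1.66.

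Of the 6 receptors, 5 belong to the Gi-coupled group, which had 16 listed and 6 compared members. Over all compared genes 7.09% were higher by the rule. All compared members of the group but *Sstr5* passed the filter on their GFP+ value alone, so their difference had to be above 0. The somatostatin receptors led the group. *Sstr5* (chromosome 17, 25489875 to 25497288, mm10, minus strand) measured 1.13 FPKM in GFP- cells against 47.9 FPKM in GFP+ cells, 42.2 times as much and 4.52 on the log2 scale, with deposited upper bounds of 2.95 and 114 FPKM. The deposited lower bound was 0 for every receptor in both libraries, so the intervals of the fractions overlap throughout. *Sstr5* had the highest GFP+ level of all 55 receptors and stood at rank 107 among the 11868 compared genes. *Sstr1* (chromosome 12, 58211804 to 58216036, plus strand) measured 0.345 FPKM in GFP- cells against 22.4 FPKM in GFP+ cells, 64.9 times as much and 4.12 on the log2 scale, with upper bounds of 0.938 and 48.1 FPKM.

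*Sstr2* (chromosome 11, 113619481 to 113625895, plus strand) measured 0.785 FPKM in GFP- cells against 6.63 FPKM in GFP+ cells, 8.44 times as much, with upper bounds of 2.17 and 16.1 FPKM. Its log2 difference of 2.10 lay just inside the size rule. *Sstr3* followed at 0.133 and 1.00 FPKM, with a log2 difference of 0.82 that missed it, although its ratio was 7.54. Its upper bounds were 0.379 and 2.84 FPKM. *Sstr4* was listed at 0 in both libraries. In GFP+ the levels thus ranked in the order *Sstr5*, *Sstr1*, *Sstr2*, *Sstr3*, and in GFP- in the order *Sstr5*, *Sstr2*, *Sstr1*, *Sstr3*. The upper bound of *Sstr1* in GFP+ (48.1 FPKM) reached the level of *Sstr5* (47.9 FPKM), so their order in GFP+ is within the deposited bounds. The order in GFP- is within them too. There the upper bound of *Sstr1* (0.938 FPKM) exceeded the level of *Sstr2* (0.785 FPKM), and that of *Sstr2* (2.17 FPKM) the level of *Sstr5* (1.13 FPKM).

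The 5 somatostatin receptors are paralogs, and a stretch of 3 of them is shown to show how alike they are where they match best. Their coding sequences matched at 56.1% to 66.8% of aligned bases in the 10 pairs, and the longest run of bases shared by the transcripts of a pair was between 15 and 41. The run of 41 was shared by *Sstr5* and *Sstr3*. The window of 60 coding bases with the most positions identical in all 5 receptors holds the codons of the Asp-Arg-Tyr motif, which lies at the inner end of the third transmembrane helix and takes part in coupling to the G protein. Capitals mark bases that differ from *Sstr5*, and the transcripts are those of GENCODE M21 on GRCm38:
Sstr5, chr17:25491835-25491894 (minus strand): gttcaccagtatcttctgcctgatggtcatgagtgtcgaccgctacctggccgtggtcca
Sstr2, chr11:113624634-113624693 (plus strand): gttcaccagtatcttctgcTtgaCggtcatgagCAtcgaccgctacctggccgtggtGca
Sstr3, chr15:78540103-78540162 (minus strand): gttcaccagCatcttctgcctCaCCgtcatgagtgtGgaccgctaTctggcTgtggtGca
In this window *Sstr2* differed from *Sstr5* at 5 bases and *Sstr3* at 8. The part of shared sequence in the levels of these receptors was not tested.

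*Npy1r*, the Y1 receptor for neuropeptide Y and peptide YY (chromosome 8, 66697422 to 66706798, plus strand), measured 0.0803 FPKM in GFP- cells against 6.79 FPKM in GFP+ cells. The ratio of 84.6 was the highest of the 6, on a low GFP- value that stood for about 14 fragments, and the log2 difference was 2.85. The upper bounds of *Npy1r* were 0.239 and 15.4 FPKM. Its neighbour *Npy5r*, the Y5 receptor on the opposite strand of the same region, was at 0 and 0.0153 FPKM. *Npy2r*, the Y2 receptor, was at 0.061 FPKM in GFP- and listed at 0 in GFP+, the reverse order of *Npy1r*. So 1 of the 3 listed receptors of this family reached 1 FPKM.

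*Galr1*, the main Gi-coupled galanin receptor, measured 0.157 FPKM in GFP- cells against 11.5 FPKM in GFP+ cells, 73.0 times as much and 3.43 on the log2 scale. Its upper bounds were 0.451 and 26.7 FPKM. *Galr2*, kept in this group although it couples mainly to Gq, was at 0.0282 and 0.0751 FPKM. *Galr3* cannot be separated from *Gcat*, a mitochondrial enzyme gene, and their joined row measured 140 FPKM in GFP- cells against 34.0 FPKM in GFP+ cells, or -2.01 on the log2 scale. That row was not counted for the receptor.

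The opioid receptors and the receptor for melanin-concentrating hormone were near 0. *Oprl1*, for nociceptin, measured 0.00591 FPKM in GFP- cells against 0.0575 FPKM in GFP+ cells. *Oprd1*, the delta receptor for enkephalins, was at 0.0628 FPKM in GFP- and listed at 0 in GFP+, while *Oprm1*, the mu receptor, was listed at 0 in GFP- and at 0.0265 FPKM in GFP+. *Oprk1* was listed at 0 in both. *Mchr1* was at 0.00818 and 0.00817 FPKM, which stood for about 1 fragment in each library. The exons of *Oprm1* overlap those of the antisense gene *Ipcef1*, and the sources used here do not say whether strand was used in counting.

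**Figure D2:**
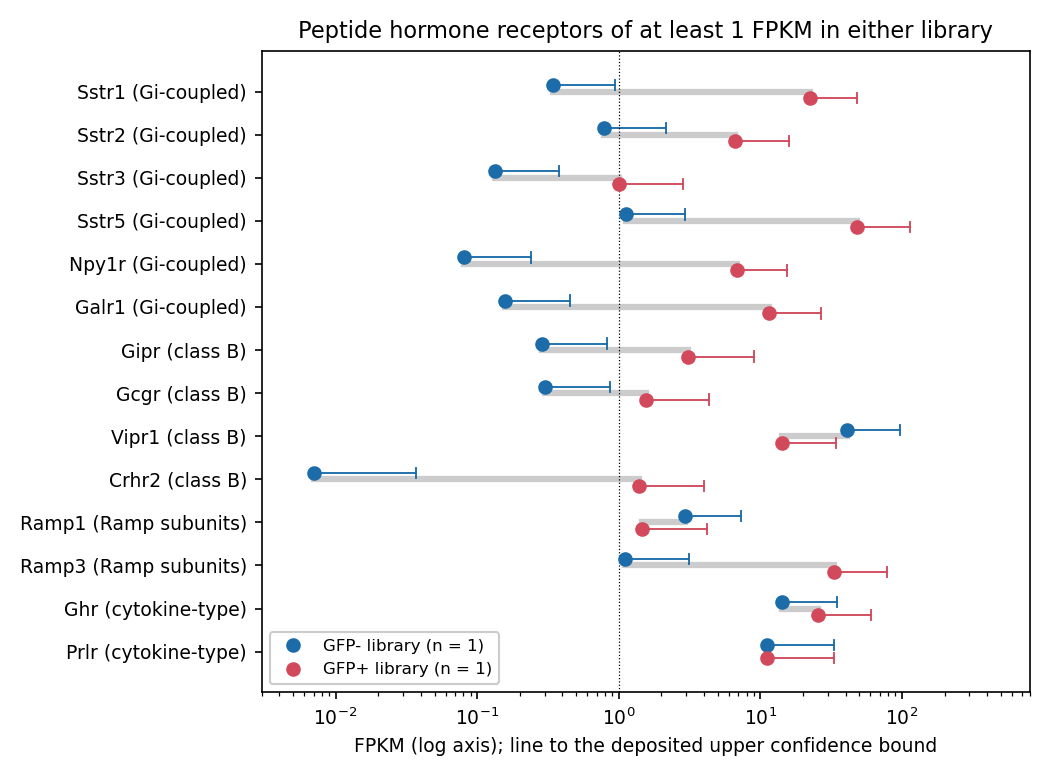
Points give the FPKM (log axis) of the 14 receptors of at least 1 FPKM in the GFP- library (blue) and the GFP+ library (red), with a line to the deposited upper confidence bound. *Sstr5*, *Ramp3*, *Ghr* and *Sstr1* have the highest GFP+ points, at 47.9, 33.1, 25.4 and 22.4 FPKM, and *Vipr1* has the highest GFP- point, at 40.6 FPKM.

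Promoter sequences of 3 of the 6 receptors were in the RefSeq table used (GRCm38.p6). They are shown because these receptors were all higher in GFP+. Each runs from 250 bases before to 50 bases after the annotated start, and capitals mark matches to the motifs given after them:
Sstr2, chr11:113619077-113619376 (plus strand): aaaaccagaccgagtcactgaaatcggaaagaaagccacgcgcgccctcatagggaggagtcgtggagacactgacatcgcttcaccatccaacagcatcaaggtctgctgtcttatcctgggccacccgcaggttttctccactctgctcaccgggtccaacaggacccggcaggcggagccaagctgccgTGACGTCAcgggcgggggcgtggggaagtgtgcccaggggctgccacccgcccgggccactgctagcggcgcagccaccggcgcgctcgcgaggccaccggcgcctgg
Npy1r, chr8:66697172-66697471 (plus strand): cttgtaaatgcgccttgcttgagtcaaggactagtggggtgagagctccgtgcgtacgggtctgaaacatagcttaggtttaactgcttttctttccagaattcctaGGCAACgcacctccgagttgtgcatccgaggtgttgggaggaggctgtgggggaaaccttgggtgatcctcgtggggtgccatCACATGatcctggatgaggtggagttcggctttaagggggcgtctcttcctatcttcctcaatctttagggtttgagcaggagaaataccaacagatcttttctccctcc
Ramp3, chr11:6658283-6658582 (plus strand): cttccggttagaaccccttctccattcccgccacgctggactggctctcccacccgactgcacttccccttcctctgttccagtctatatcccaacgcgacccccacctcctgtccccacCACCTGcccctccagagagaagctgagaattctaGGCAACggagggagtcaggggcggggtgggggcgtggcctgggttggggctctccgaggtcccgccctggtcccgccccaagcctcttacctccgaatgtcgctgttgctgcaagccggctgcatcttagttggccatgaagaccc
The motifs were searched on both strands. The cyclic AMP response element TGACGTCA was found once, in *Sstr2*, and occurs in 1.79% of 32851 promoters of the table. The E-box CANNTG was found in *Npy1r* and in *Ramp3*, and occurs in 72.3% of promoters. GTTGCC, an arm of the X-box read by RFX factors, was found in *Npy1r* and in *Ramp3*, and occurs in 12.5%. The E-box CAGATG, which is a special case of CANNTG, the homeodomain core TAATTA and the TATA box TATAAA were in none of the 3 and occur in 17.2%, 5.29% and 13.6% of promoters. No motif was shared by all 3. The *Sstr2* and *Ramp3* sequences had a GC content of 66.3% and 63.7% and that of *Npy1r* 51.7%, beside a median of 52.7% over the table. A match is a description of letters and does not show a binding site.

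Among 11 class B receptors, which bind peptides of the secretin and glucagon type and signal mainly through Gs, 4 were compared and none passed the size rule. Over all compared genes 7.09% were higher and 4.59% lower by it. *Vipr1*, the VPAC1 receptor for vasoactive intestinal peptide (chromosome 9, 121642716 to 121672954, plus strand), was the most abundant receptor of the GFP- library. It measured 40.6 FPKM in GFP- cells against 14.3 FPKM in GFP+ cells, or -1.44 on the log2 scale, with upper bounds of 96.9 and 34.2 FPKM. This was the lowest difference of the 14 and, like that of *Ramp1*, it stayed below 0 under every setting in which it was compared. Its relative *Vipr2* was at 0.0252 and 0.0504 FPKM.

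The incretin and glucagon receptors were low. *Gipr*, the receptor for glucose-dependent insulinotropic peptide (chromosome 7, 19157125 to 19166127, minus strand), measured 0.289 FPKM in GFP- cells against 3.07 FPKM in GFP+ cells, 10.6 times as much. Its log2 difference of 1.66 lay outside the size rule, and its upper bounds were 0.83 and 8.96 FPKM. *Gcgr*, the glucagon receptor, was at 0.303 and 1.55 FPKM, 5.12 times as much and 0.97 on the log2 scale, with upper bounds of 0.866 and 4.31 FPKM. *Glp1r*, for glucagon-like peptide 1, was listed at 0 in GFP- and was at 0.0907 FPKM in GFP+, about 32 fragments. *Glp2r* was listed at 0 in both libraries.

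*Crhr2*, the receptor for urocortins (chromosome 6, 55090049 to 55133016, minus strand), measured 0.00705 FPKM in GFP- cells against 1.40 FPKM in GFP+ cells. The GFP- value stood for about 1 fragment, so no ratio is given, and the log2 difference was 1.25. Its upper bounds were 0.0369 and 4.00 FPKM. *Crhr1*, its paralog for corticotropin-releasing hormone, was listed at 0 in both. *Sctr*, the secretin receptor, was at 0.0095 and 0.019 FPKM, *Pth1r*, for parathyroid hormone, at 0.0241 and 0.0482 FPKM, and *Adcyap1r1*, the PACAP receptor, at 0.0133 and 0.00266 FPKM. Each of these 3 stood for under 7 fragments in either library.

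In the calcitonin family, *Calcrl* needs a *Ramp* subunit to reach the cell surface, and the subunit sets which peptide it prefers, calcitonin gene-related peptide with *Ramp1* and adrenomedullin with *Ramp2* or *Ramp3*. *Calcr* binds calcitonin by itself and becomes an amylin receptor with a *Ramp* subunit. These subunits can also associate with other receptors. *Ramp3* (listed locus chromosome 11, 6650148 to 6677475, plus strand) measured 1.11 FPKM in GFP- cells against 33.1 FPKM in GFP+ cells, 29.9 times as much and 4.02 on the log2 scale, with upper bounds of 3.15 and 78.7 FPKM. *Ramp1* measured 2.95 FPKM in GFP- cells against 1.45 FPKM in GFP+ cells, or -0.69 on the log2 scale, with upper bounds of 7.27 and 4.18 FPKM. *Ramp2* was at 0.182 and 0.936 FPKM, just under the filter that *Sstr3* passed at 1.00 FPKM. The subunit with the highest level was thus *Ramp1* in GFP- and *Ramp3* in GFP+. In GFP- the upper bound of *Ramp3* (3.15 FPKM) exceeded the level of *Ramp1* (2.95 FPKM), so that order is within the deposited bounds.

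*Calcrl* and *Calcr* were near 0 in both fractions. *Calcrl* measured 0.0738 FPKM in GFP- cells against 0.0879 FPKM in GFP+ cells, and *Calcr* was listed at 0 in GFP- and at 0.0147 FPKM in GFP+. The listed locus of *Ramp3* begins before the annotated gene (6658521) and is shared with the antisense pseudogene *Gm11978*, which was at 0.152 and 0.0908 FPKM. *Ramp2* shares exon sequence with *Vps25* on the same strand, which was at 184 and 105 FPKM, so its low value is uncertain. *Pecam1*, an endothelial gene, also had its higher value in GFP+, and *Calcrl* and *Ramp2* are abundant in endothelium as background. The other 4 endothelial markers were at most 0.0136 FPKM in GFP+. The part of endothelial cells in the values of *Calcrl* and *Ramp2* was not tested.

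Of the single-pass receptors, *Ghr* and *Prlr* were compared and neither passed the size rule. *Ghr*, the growth hormone receptor (chromosome 15, 3317755 to 3583352, minus strand), measured 14.2 FPKM in GFP- cells against 25.4 FPKM in GFP+ cells, 1.80 times as much and 0.80 on the log2 scale, with upper bounds of 34.6 and 60.1 FPKM. Under the 2 other scalings the log2 difference of *Ghr* was 1.29 and 1.43. *Prlr*, the prolactin receptor (chromosome 15, 10177238 to 10349180, plus strand), was at 11.1 FPKM in both, with a log2 difference of -0.00 that was 0.46 and 0.59 under the 2 other scalings. Its upper bounds were 33.0 and 33.2 FPKM, and its exons overlap those of *Gm21973* on the same strand. *Lepr*, the leptin receptor, was at 0.015 and 0.0222 FPKM. With *Vipr1*, *Ghr* and *Prlr* were the only members above 10 FPKM in both libraries.

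None of the 17 receptors coupled mainly to Gq that had a row of their own reached 1 FPKM. *Ntsr2*, a neurotensin receptor, had the highest value of them, 0.0982 FPKM in GFP+ against 0.0123 FPKM in GFP-. *Nmur1*, for neuromedin U, was at 0.0826 FPKM in GFP+ and listed at 0 in GFP-. The endothelin receptors *Ednra* and *Ednrb* measured 0.0651 and 0.0436 FPKM in the GFP+ library, beside 0.014 and 0.0187 in the GFP- library, and the oxytocin receptor *Oxtr* was at 0.00365 and 0.0329 FPKM. *Bdkrb2*, the constitutive bradykinin receptor, was at 0.0445 FPKM in GFP- and listed at 0 in GFP+, and its inducible relative *Bdkrb1* was listed at 0 in GFP- and at 0.044 FPKM in GFP+. These values of *Bdkrb1* and *Bdkrb2* stood for under 10 fragments.

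Of the remaining Gq-coupled receptors, *Ntsr1* and *Grpr* were at 0.00431 and 0.00706 FPKM in GFP- and listed at 0 in GFP+. The tachykinin receptors *Tacr1*, *Tacr2* and *Tacr3*, the gastrin receptor *Cckbr*, the angiotensin receptor *Agtr1a*, the ghrelin receptor *Ghsr*, *Nmbr* and *Nmur2* were listed at 0 in both libraries. *Cckar*, the cholecystokinin receptor, occurs only in a row joined with *Rnu7*, which was at 0.0059 FPKM in GFP- and 0 in GFP+. *Mc4r*, a melanocortin receptor coupled to Gs, was at 0.00625 FPKM in GFP- and listed at 0 in GFP+.

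Among the natriuretic peptide receptors, 1 of 3 came close to the filter. *Npr1*, the guanylyl cyclase that binds atrial natriuretic peptide, was listed at 0 in GFP- and was at 0.881 FPKM in GFP+, about 214 fragments on the estimated scale. It missed the filter of 1 FPKM and was not compared. A value of 0 allows up to 0.0125 FPKM for this transcript (3 fragments, counting error only). *Npr3*, the clearance receptor, was at 0.0025 and 0.0175 FPKM, and *Npr2*, the receptor for C-type natriuretic peptide, was listed at 0 in both. The exons of all 3 overlap those of an antisense gene in GENCODE M21, as do those of *Glp2r*, *Pth1r*, *Ednra* and *Nmbr*.

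**Figure D3:**
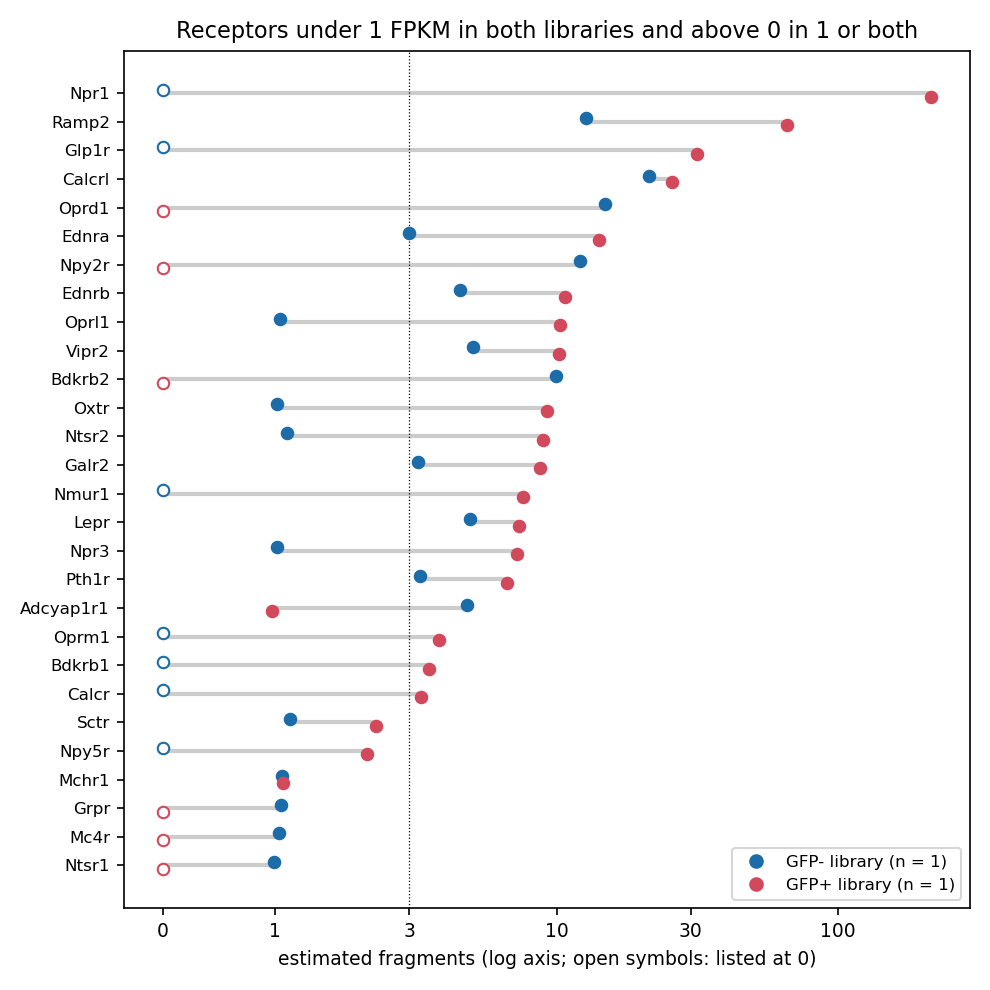
Points give the estimated number of fragments (log axis, 0 drawn at the left end as open symbols) in the GFP- library (blue) and the GFP+ library (red) for the 28 receptors under 1 FPKM in both libraries and above 0 in 1 or both; the dotted line marks 3 fragments. *Npr1* has the highest point, about 214 fragments in GFP+, and *Mchr1* has about 1 fragment in each library.

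The fragment numbers rest on the steps in the low FPKM values, which gave about 59.0 fragments per FPKM and kilobase in GFP- and 59.8 in GFP+, with each receptor taken at its longest annotated coding transcript. A 3 kb transcript at 1 FPKM would then stand for about 177 fragments in GFP- and 179 in GFP+. The 6 receptors of the size rule stood for about 849 (*Sstr2*) to 7826 (*Sstr5*) fragments in GFP+ and about 14 (*Npy1r*) to 183 (*Sstr5*) in GFP-. The 13 receptors listed at 0 in both libraries had limits between 0.00999 and 0.0357 FPKM. Among the 28 low receptors 7 were above 0 in GFP+ alone and 6 in GFP- alone. These estimates cover counting error only, and since the cDNA was amplified and fragments carry no molecular barcode, several fragments can stem from a single molecule.

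Ligand precursors were set beside the 14 compared receptors, 21 genes in all, of which 8 reached 1 FPKM and 6 were listed at 0 in both libraries. Of the full list of 51 precursors 20 were compared, with 7 past the rule on the GFP+ side and 4 on the GFP- side. Over all compared genes these shares were 7.09% and 4.59%. The 4, *Sst*, *Gcg*, *Ghrl* and *Nts*, passed the filter on their GFP- value alone, so their difference had to be below 0. Of the 7, *Gast*, *Penk* and *Nmb* passed it on their GFP+ value alone. *Sst*, the somatostatin precursor, measured 37.6 FPKM in GFP- cells against 0.236 FPKM in GFP+ cells, so that the precursor was high in the library where *Sstr1*, *Sstr2*, *Sstr3* and *Sstr5* were low. *Gcg*, the glucagon precursor, was at 120 and 0.286 FPKM, beside *Gcgr* at 0.303 and 1.55 FPKM. Because *Sstr1*, *Sstr2*, *Sstr3* and *Gcgr* passed the filter on their GFP+ value alone, their direction was set by it. Their opposite order to *Sst* and *Gcg* is a description only. *Pyy* was at 1.93 and 1.06 FPKM, *Gal* at 0.183 and 0.0728 FPKM, and *Npy*, *Ppy* and *Cort* were listed at 0.

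The order of the 2 libraries differed among the other pairs. *Ucn3*, a urocortin selective for *Crhr2*, measured 3.13 FPKM in GFP- cells against 509 FPKM in GFP+ cells, the library where *Crhr2* was at 1.40 FPKM. *Gip* was at 275 and 141 FPKM, beside *Gipr* at 0.289 and 3.07 FPKM, so their higher values lay in different libraries. Both *Crhr2* and *Gipr* had passed the filter on their GFP+ value alone. Of the calcitonin family, *Adm* was at 7.87 and 25.7 FPKM, or 1.59 on the log2 scale, which passed the rule at 2.07 and 2.24 under the 2 other scalings. Its relatives were *Adm2* at 5.15 and 10.0 FPKM and *Iapp* at 2.55 and 54.7 FPKM, while *Calcb* was listed at 0 in GFP- and was at 0.927 FPKM in GFP+. *Vip* and *Prl*, the ligands of *Vipr1* and *Prlr*, were listed at 0 in both, and *Gh* was at 0.0494 FPKM in GFP+. *Adcyap1*, whose peptide also binds *Vipr1*, was at 0.0172 and 0.121 FPKM, and *Calca* at 0.207 and 0 FPKM. Of the other ligands of *Crhr2*, *Crh* and *Ucn* were at 0.0149 and 0.125 FPKM in GFP+ alone and *Ucn2* was listed at 0. *Tac1*, the tachykinin precursor, was at 2200 FPKM in GFP+, where all 3 tachykinin receptors were listed at 0.

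**Figure D4:**
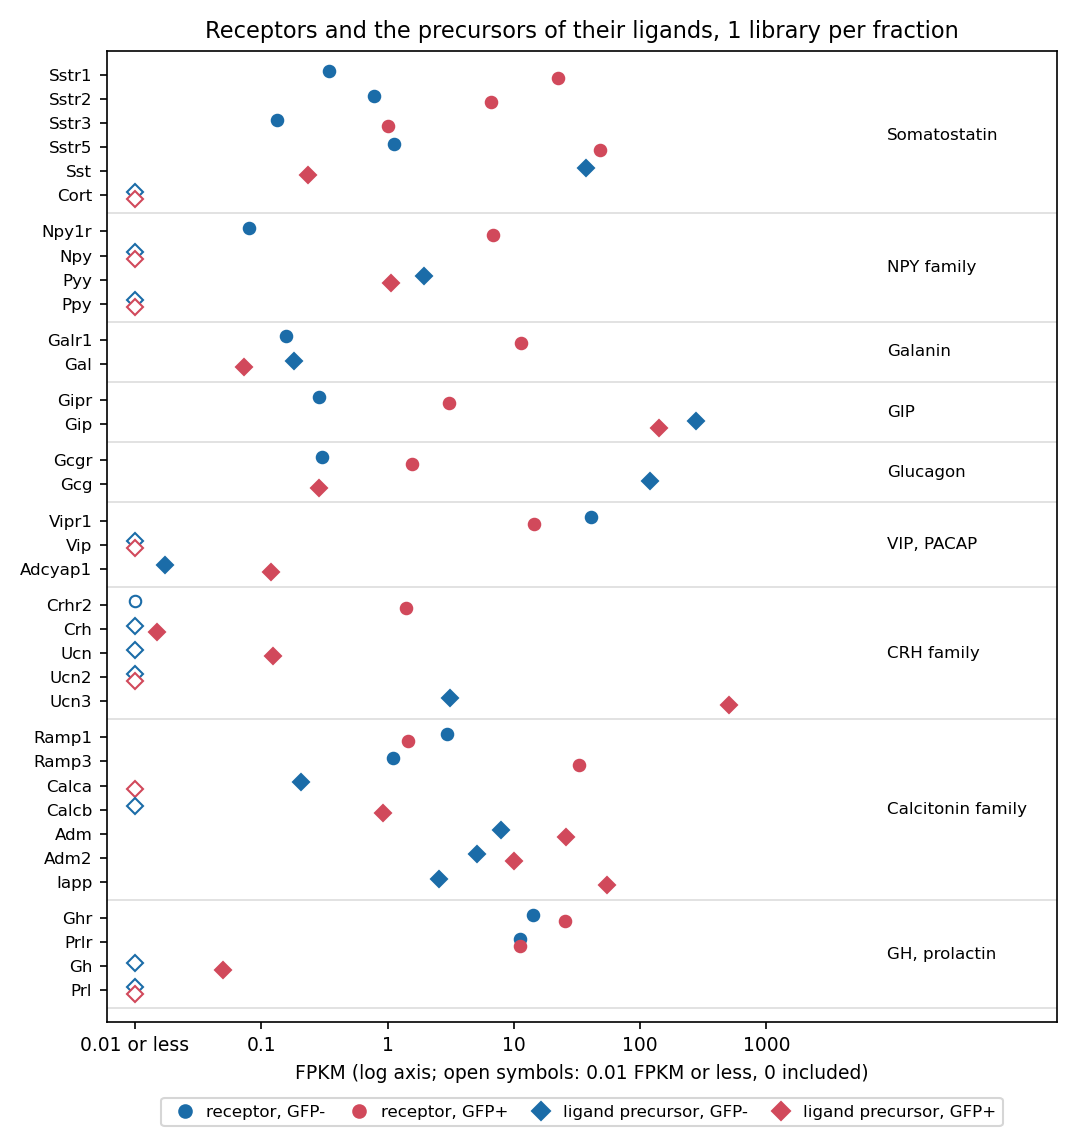
Circles give the FPKM (log axis) of the 14 compared receptors and diamonds that of the precursors of their ligands, in blue for the GFP- library and in red for the GFP+ library, with open symbols at 0.01 FPKM or less. *Sst* lies at 37.6 FPKM in GFP- and its receptors *Sstr5* and *Sstr1* at 47.9 and 22.4 FPKM in GFP+, while *Ucn3* and *Crhr2* both have their higher value in GFP+.

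Of 15 proteins that carry or end the receptor signal 12 were compared, with 3 past the rule on the GFP+ side and none on the other. Over all compared genes these shares were 7.09% and 4.59%. The median was 0.40, beside -0.12 over all compared genes. *Gnao1*, *Gnaz* and *Gnaq* passed the filter on their GFP+ value alone, so their difference had to be above 0. *Gnao1* and *Gnaz*, alpha subunits of the Gi/o class, were at 0.322 and 0.522 FPKM in the GFP- library. In the GFP+ library they measured 31.4 and 30.6 FPKM, or 4.62 and 4.38 on the log2 scale. *Adrbk2*, a kinase that phosphorylates active receptors, was at 1.60 and 21.1 FPKM. *Grk6* had a difference of -1.40. The widely expressed Gi subunits *Gnai2* and *Gnai3* measured 149 and 84.7 FPKM in the GFP- library, against 181 and 115 in the GFP+ library. *Gnas*, the Gs subunit, measured 538 and 400 FPKM, or -0.43 on the log2 scale, which was 0.07 and 0.19 under the 2 other scalings.

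All 12 peptidases that cut peptide hormones were compared, with a median of 0.05 beside -0.12 over all compared genes. The share past the rule on the GFP+ side was 8.33%, near the 7.09% of all compared genes. *Ece1*, which processes endothelin, was the only member past the rule, with 122 FPKM in GFP+ against 13.2 FPKM in GFP-. *Dpp4*, which inactivates incretins, was at 29.0 and 111 FPKM, a difference of 1.90 that passed the rule under both other scalings. *Ece2* had a difference of -1.92 and *Thop1* one of -1.15.

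The count of 6 depended on the scale. With a pseudocount of 0.1 in place of 1, 10 receptors passed the rule, *Sstr3*, *Gipr*, *Gcgr* and *Crhr2* being added, where 12.8% of all compared genes did. With a pseudocount of 5, 3 passed it (*Sstr5*, *Sstr1* and *Ramp3*), against 2.97% of all. With a filter of 5 FPKM the same 6 of 9 receptors passed it, against 8.16%. With the median ratio of well-expressed genes set to 0, 7 of 16 did, *Gipr* being added, against 10.8%. With both libraries brought to a common FPKM total, 8 of 16 did, *Gipr* and *Crhr2* being added, against 13.4%. The 16 include *Ramp2* and *Npr1*, which passed the filter after scaling. These 2 scalings moved the median difference of all compared genes from -0.12 to 0.35 and 0.50. *Sstr5*, *Sstr1* and *Ramp3* passed the rule under every setting tried.

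**Figure D5:**
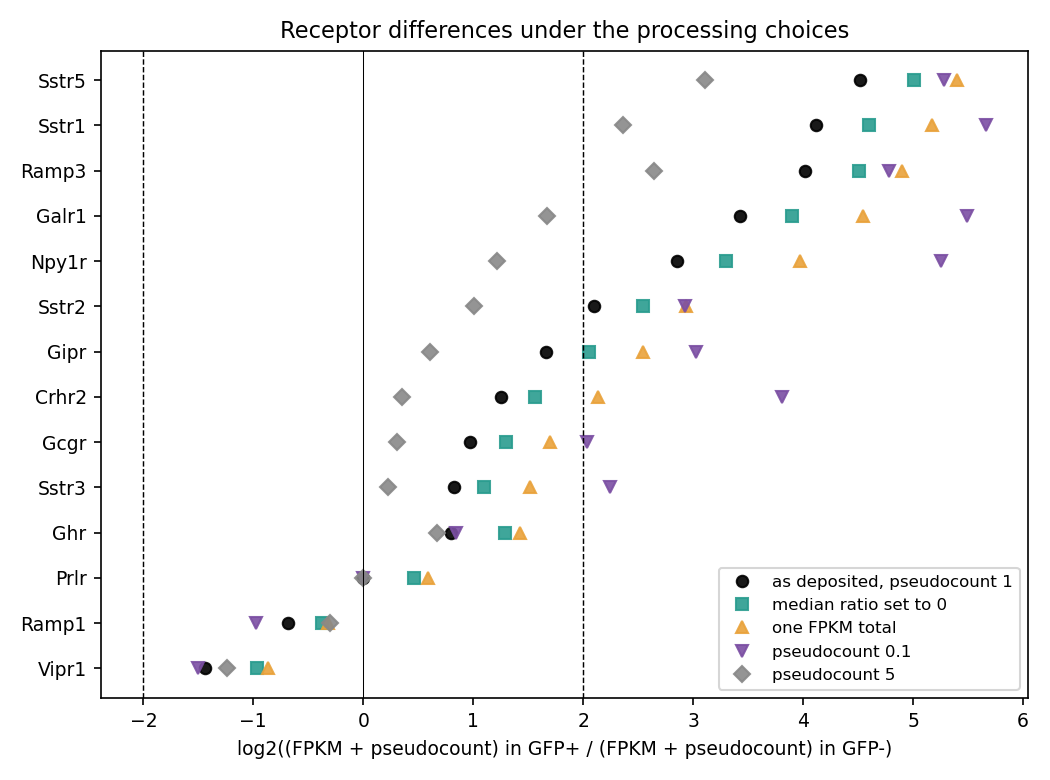
Symbols give the log2 difference of each compared receptor between GFP+ and GFP- under 5 processing choices (x axis; dashed lines at -2 and 2), for the values as deposited, 2 other scalings and 2 other pseudocounts. *Sstr5*, *Sstr1* and *Ramp3* stay right of 2 throughout, and *Vipr1* and *Ramp1* stay left of 0.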

How the data were processed

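RNA of sorted GFP+ and GFP- organoid cells was made into cDNA with a SMARTer low-input kit, per the labels' protocols. The submitters' processing notes name FastQC, TopHat2 0.7, Cufflinks, Cuffdiff and mm10. The sources used here do not give the annotation, how libraries were scaled, or how strand and multiply mapped reads were handled. The deposited values are FPKM with confidence bounds, per the file headers. Upper bounds are 2.15 to 5.24 times the FPKM among compared receptors.

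FPKM was summed per symbol. Symbols with a row marked HIDATA (5 rows in GFP+, 0 in GFP-) were treated as not estimated. No receptor had such a mark. Locus starts were shifted to count from 1. The script that applies the size rule was tested on simulated data. No test was made between 2 single libraries. Fragment numbers were estimated from single-transcript genes longer than 3000 bases (GENCODE M21). Of 109 and 83 low values, 75.2% in GFP- and 59.0% in GFP+ lay within 0.1 of a whole fragment, with the unit taken from the same values.

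Named were all receptors, by level: those of at least 1 FPKM with both values and a difference, the others with their values. Of the signalling and peptidase lists up to 4 genes were named by size of difference. *Gnai2*, *Gnai3*, *Gnas* and *Tac1* were named after their values were seen. Receptors, lists and rules were chosen with earlier results of these data known. The windows of the other somatostatin receptors are not reported here. Analyses used Python 3.11.15, pandas 2.3.3, numpy 2.4.6 and MAFFT 7.526.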

Additional observations from a re-analysis of the deposited data

How the results depend on the processing

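With 1 library per fraction no result has a replicate check. The count of receptors at least 4-fold higher in GFP+ (6) was 10 with a pseudocount of 0.1 and 3 with a pseudocount of 5. It was 6 with no filter, with a filter of 5 FPKM and with joined rows, 7 with the median ratio set to 0 and 8 with a common FPKM total. The count of receptors 4-fold lower (0) became 1 when joined rows were let in, through the row of *Galr3* and *Gcat*, which were not separated. The median difference of the compared receptors (1.45) was 2.98 and 0.64 with pseudocounts of 0.1 and 5, 0.021 over all 55 receptors with no filter, 2.85 with a filter of 5 FPKM, 1.43 with the median ratio set to 0, 1.91 with a common total and 1.25 with joined rows. The filter and the joined rows change which receptors enter the median. So do the 2 scalings, where *Ramp2* and *Npr1* passed the filter and 16 receptors were compared. A smaller pseudocount enlarges the differences of low values by its arithmetic. *Prlr*, at -0.00 as deposited, moved to 0.46 under the first of these scalings and 0.59 under the other. It was the only one of the 14 to change sign under either scaling. With a pseudocount of 5, *Sstr2*, *Npy1r* and *Galr1* no longer passed the rule, at 1.01, 1.21 and 1.67. Depth limits the receptors under about 10 fragments, whose order between libraries was not read. No paired analysis was possible because each fraction has 1 library.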
